A study of Mus musculus with 6 samples.

Results

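The genes described here are 38 mouse transcripts of the NF-kB inflammatory response and of the inflammasome, measured by RNA sequencing of liver. They were taken by name, with earlier results of these data known, the call on Ackr2 among them. Each symbol was looked up in the mouse annotation GENCODE M21 and its row read from the 6 deposited files. All 38 were found among the 55536 genes there. A low-count rule (0.66 reads per 1000000 in 3 or more libraries, and a sum of 15 or more) left 28 of the 38 for testing, among 13299 genes in all. The other 10 are described by their reads, and 2 of them, Ccl7 and Ptgs2, were under 0.1 FPKM (reads divided by exon length and by the read total of the library) in all 6 files, too low to measure.

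The comparison is between 3 liver libraries from mice dosed with PS-MP, polystyrene microplastics (small plastic particles), and 3 from mice given water. All were male C57BL/6 mice, an inbred strain, and were 6 weeks old when dosing began. The oral dose of PS-MP was 0.4 mg per day, given on 2 occasions per week over 8 weeks, and water followed the same schedule. The size of the particles, the hour of collection and the feeding state are not given in the sources used here, and no label states that the 3 libraries of a group are from separate animals, so a p-value here reflects the spread over libraries, which may be technical.

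NF-kB is a family of transcription factors that wait in the cytoplasm, bound by inhibitors such as IkB-alpha, the product of Nfkbia. Toll-like receptors and the receptors of TNF and interleukin-1 trigger the breakdown of the inhibitor, and the freed dimers switch on cytokines, chemokines, adhesion molecules and, as a brake, the inhibitors themselves. The inflammasome is a complex built by a sensor such as NLRP3 and the adaptor ASC (Pycard), which activates caspase-1 to cut pro-interleukin-1 beta and pro-interleukin-18 and the pore protein gasdermin D. In liver, Kupffer cells, the resident macrophages, carry much of this machinery, and hepatocytes and endothelial cells carry parts of it.

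The libraries held 13082210 to 15938284 reads in the PS-MP group and 14520402 to 16948343 reads in the water group. Liver identity was checked with 6 hepatocyte transcripts, which summed to 37960 to 44610 FPKM in PS-MP libraries and 44500 to 47550 FPKM in water libraries. One library stood furthest apart. A list of 8 forebrain transcripts had 346, 293 and 2771 reads in PS-MP replicates 1, 2 and 3, against 154 to 179 reads in water libraries, so for each member whose log2 fold change moved by over 1.5 times or changed sign when PS-MP replicate 3 was left out, the value without it is given too. Snap25 alone had 61, 19 and 860 reads in PS-MP replicates 1, 2 and 3, against 1, 2 and 0 reads in water replicates 1, 2 and 3. Of the 8 forebrain transcripts only Gfap had overlapping groups in FPKM, and the others were higher in every PS-MP library. Leaving out PS-MP replicate 3 thus took away most of these reads but not all of them. Fat transcripts (Adipoq, Cfd, Ucp1 and Plin1) were also uneven, at 0, 1 and 207 reads in PS-MP replicates 1, 2 and 3, against 518, 8 and 126 reads in water replicates 1, 2 and 3. Fewer cells of a type and less RNA per cell cannot be told apart in such bulk tissue.

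Because NF-kB acts through short sites in DNA, the start regions of 4 genes are shown: Ackr2, the member that changed; Nfkbia and Cxcl1, the classic inhibitor and chemokine targets; and Tnfaip3, another feedback target with a site. They come from RefSeq on GRCm38.p6, run from 250 bases before to 50 bases after the start site, and are printed 5′ to 3′ along the gene. Capitals mark matches, on either strand, to the kB consensus, the sequence that NF-kB dimers bind; overlapping matches run together. The windows are chr9:121898105-121898404 on the plus strand for Ackr2, chr12:55492598-55492897 on the minus strand for Nfkbia, chr5:90890995-90891294 on the plus strand for Cxcl1 and chr10:19015361-19015660 on the minus strand for Tnfaip3.
Ackr2: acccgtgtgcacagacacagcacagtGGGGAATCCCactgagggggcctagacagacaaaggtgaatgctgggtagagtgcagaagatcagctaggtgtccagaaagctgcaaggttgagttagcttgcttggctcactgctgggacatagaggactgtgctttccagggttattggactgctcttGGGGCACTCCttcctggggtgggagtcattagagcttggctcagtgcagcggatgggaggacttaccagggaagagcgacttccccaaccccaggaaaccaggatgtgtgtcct
Nfkbia: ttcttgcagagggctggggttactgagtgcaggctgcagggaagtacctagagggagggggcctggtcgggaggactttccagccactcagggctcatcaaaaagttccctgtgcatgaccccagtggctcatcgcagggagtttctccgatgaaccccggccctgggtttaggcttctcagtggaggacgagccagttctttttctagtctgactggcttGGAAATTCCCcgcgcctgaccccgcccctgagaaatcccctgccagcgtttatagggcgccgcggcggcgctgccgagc
Cxcl1: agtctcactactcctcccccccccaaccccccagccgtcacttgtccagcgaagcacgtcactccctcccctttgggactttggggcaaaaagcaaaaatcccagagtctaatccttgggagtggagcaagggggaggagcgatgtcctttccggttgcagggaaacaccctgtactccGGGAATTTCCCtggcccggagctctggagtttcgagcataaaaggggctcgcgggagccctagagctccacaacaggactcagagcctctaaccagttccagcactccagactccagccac
Tnfaip3: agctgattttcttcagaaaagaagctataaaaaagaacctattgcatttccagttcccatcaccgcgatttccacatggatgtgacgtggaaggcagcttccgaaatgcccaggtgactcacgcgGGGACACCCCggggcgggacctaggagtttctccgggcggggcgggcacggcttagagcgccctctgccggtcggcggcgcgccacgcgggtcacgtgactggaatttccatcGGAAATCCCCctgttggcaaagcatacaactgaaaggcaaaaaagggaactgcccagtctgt
The Nfkbia window has its match at -29 to -20 from the start site and the Cxcl1 window has overlapping matches from -71 to -61. The same letters, GGGAATTTCC, are found in both, on opposite strands. The Ackr2 window has a match at -224 to -215 and another at -64 to -55, and the Tnfaip3 window has one at -125 to -116 and another at -12 to -3. Of the 30 members with a start region in the RefSeq table, 11 held at least 1 match (36.7%), against 9.55% of the 27025 genes in the table and 12.1% of those that were tested here. The 11 were Il6, Cxcl1, Cxcl2, Nfkbia, Nfkb2, Tnfaip3, Tnfaip2, Tlr2, Ackr2, Nlrp3 and Casp4. Genes known as NF-kB targets were chosen into the list, a match is a description of letters only, and genes with a match included the one that changed (Ackr2) and 10 that did not pass or were not tested.

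Of the 28 tested members, 1 changed between PS-MP and water livers, and it was lower. Ackr2 encodes an atypical chemokine receptor that binds and degrades inflammatory CC chemokines, among them the products of Ccl2, Ccl3, Ccl4, Ccl7 and Ccl22, without signalling through G proteins. Ackr2 (chromosome 9, 121898355 to 121911074, plus strand) stood at 0.684, 0.742 and 1.007 FPKM in PS-MP replicates 1, 2 and 3, against 2.23, 1.85 and 2.27 FPKM in water replicates 1, 2 and 3. The groups did not overlap, and the highest PS-MP library was well under the lowest water library. These levels rest on 28, 37 and 47 reads in the PS-MP libraries, against 106, 98 and 103 reads in the water libraries. The means were 0.811 ± 0.172 FPKM in PS-MP and 2.12 ± 0.232 FPKM in water (SD, n = 3 each), and the log2 fold change on FPKM + 0.5 was -1.001 (standard error 0.13, adjusted p = 0.0331 by limma). Adding 0.5 understates a change at such low levels; limma-voom on the reads themselves gave -1.37. Of all genes tested, 0.489% changed in either direction and 0.248% were lower, beside which the members' count is a single gene. That gene's call was known when the members were chosen.

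The call on Ackr2 depended on single libraries and on settings, the size of the difference much less. With all libraries it was lost with no low-count rule (adjusted p = 0.129 by limma) and with the replicate number as a block (adjusted p = 0.0688 by limma). Without PS-MP replicate 3, the library with forebrain reads, the log2 fold change of Ackr2 was -1.11 and the gene still passed (adjusted p = 0.0373 by limma). With any other library left out it lay between -1.08 and -0.93 and did not pass, with adjusted p from 0.0544 to 0.154 by limma. In those fits the number of genes called in the whole table was 0 to 36, against 65 with all libraries.

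Ackr2 is known from lymphatic endothelium, and marker genes of that cell type were set beside it. Of 4 such markers 2 could be tested, Flt4 and Prox1, both also expressed by other liver cells, and neither passed with limma-trend or limma-voom (Prox1 had an unadjusted p under 0.05). Pdpn had 1, 6 and 8 reads in PS-MP libraries against 2, 0 and 3 reads in water libraries, and Ccl21a had at most 1 read in any library. The summed level of the 4 was 28.3 to 32.2 FPKM in PS-MP and 23.7 to 27.4 FPKM in water, most of it Prox1. Their part in the Ackr2 result was not tested.

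**Figure D1:**
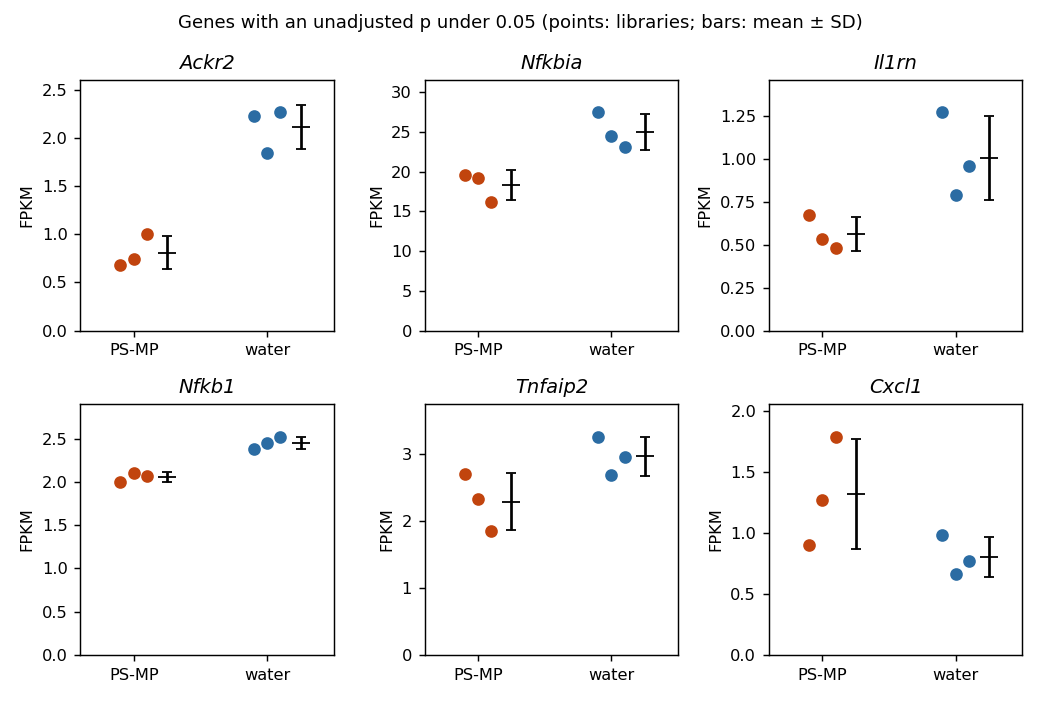
FPKM in each library for the 6 tested genes with an unadjusted p under 0.05, PS-MP at left and water at right; points are libraries and bars are the mean ± SD (n = 3). Ackr2 at 0.684 to 1.007 FPKM in PS-MP against 1.85 to 2.27 FPKM in water is the only one past the adjusted threshold, and Cxcl1 is the only one whose mean was higher in PS-MP.

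Those ligands of ACKR2 that are members had few reads in every library, at most the 9 reads of Ccl3 in water replicate 2. Ccl2, which draws monocytes, had 1, 2 and 2 reads in PS-MP libraries against 1, 3 and 5 reads in water libraries. Ccl3, a macrophage chemokine, had 0, 0 and 1 reads in PS-MP against 0, 9 and 3 reads in water. Its relative Ccl4 had 0, 1 and 1 reads in PS-MP against 2, 1 and 0 reads in water. For none of them did the groups separate, and 3 libraries against 3 cannot give a two-sided exact permutation p under 0.1. Ccl7, close kin of Ccl2, had no read in PS-MP libraries and 1, 0 and 1 reads in water, and a count of 0 allows up to 3 reads, or 0.221 to 0.286 FPKM depending on the library. Ccl22, a chemokine of dendritic cells and macrophages that draws regulatory T cells, had 1, 0 and 0 reads in PS-MP against 2, 0 and 5 reads in water. Summed over the libraries of a group, each of these CC chemokines had fewer reads in PS-MP than in water. The sums were 5 against 9 for Ccl2, 1 against 12 for Ccl3 and 2 against 3 for Ccl4. For Ccl7 they were 0 against 2, and for Ccl22 1 against 7. Such counts were too low for a test of each gene, and the shared direction was not tested.

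Tnf, the founding cytokine of the NF-kB response, had 4, 2 and 0 reads in PS-MP libraries against 3, 1 and 3 reads in water libraries. Il6, which drives the acute phase response of hepatocytes, had 2, 5 and 0 reads in PS-MP against 0, 0 and 2 reads in water. Cxcl2, a neutrophil chemokine, had 2, 4 and 0 reads in PS-MP against 2, 3 and 3 reads in water. PS-MP replicate 3 had no read of any of these 3 genes. Ptgs2, the inducible cyclooxygenase, had a single read in PS-MP replicate 3 and a single read in water replicate 1. Pycard, the ASC adaptor of the inflammasome, had 5, 7 and 9 reads in PS-MP against 7, 6 and 10 reads in water. Summed over the 10 genes, reads numbered 15, 21 and 14 in PS-MP libraries against 19, 23 and 32 in water libraries, ranges that overlap. Scaled for depth and gene length, the sums were 0.524, 0.648 and 0.480 FPKM in PS-MP libraries against 0.716, 1.153 and 1.27 FPKM in water libraries. On that scale every PS-MP library was under every water library, a description with no test. It rests on 1 gene in 1 library: Ccl3, with 9 reads, made 0.693 of the 1.153 FPKM of water replicate 2. Without Ccl3 that library would no longer lie above every PS-MP library.

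**Figure D2:**
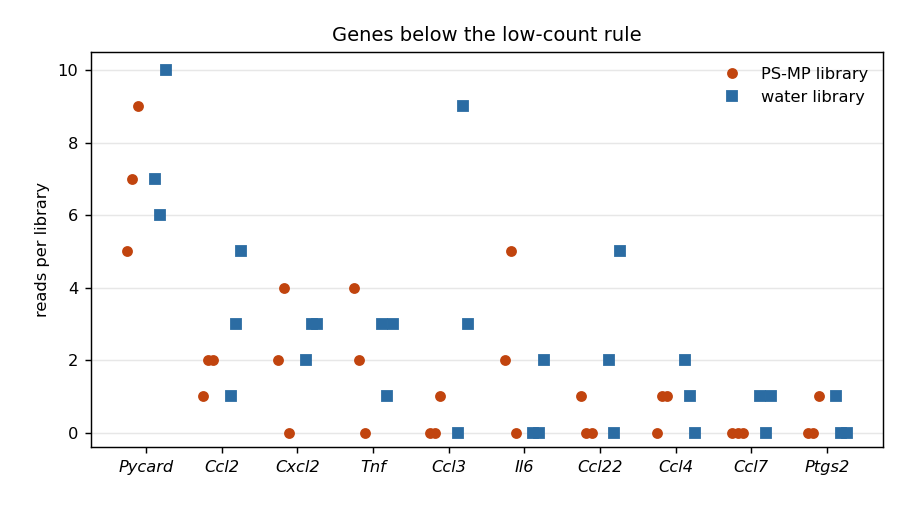
Reads per library for the 10 genes below the low-count rule, ordered by their total; circles are the 3 PS-MP libraries and squares the 3 water libraries. No library has more than 10 reads of any of them, and the groups overlap for each gene.

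Among the tested cytokines none of 4 passed (limma-voom called 0 as well, and 1 had an unadjusted p under 0.05). Il18, which hepatic macrophages make as an inactive precursor, was the most abundant at 7.86, 5.05 and 6.24 FPKM in PS-MP against 5.30, 3.03 and 5.08 FPKM in water. The groups overlapped by the lowest PS-MP library alone, and the log2 fold change was 0.48 with a 95% interval of -0.02 to 0.98 (adjusted p = 0.396 by limma), or 0.26 without water replicate 2. Il1rn, which encodes the natural antagonist of the interleukin-1 receptor, was at 0.677, 0.533 and 0.484 FPKM in PS-MP against 1.27, 0.789 and 0.958 FPKM in water. The groups did not overlap, but the log2 fold change of -0.49 (standard error 0.14) missed the threshold with an adjusted p of 0.211 by limma, and it stayed negative in all 15 alternative fits, from -0.81 to -0.35.

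The agonists that IL1RN blocks varied more within groups than between them. Il1a had 1.59, 2.38 and 0.883 FPKM in PS-MP against 2.001, 1.05 and 1.64 FPKM in water, and the log2 fold change was 0.00 (95% interval -0.64 to 0.65), or 0.28 without PS-MP replicate 3. Il1a overlaps the predicted gene Gm14023, and reads cannot be separated with certainty. Il1b had 1.04, 1.65 and 0.387 FPKM in PS-MP against 0.3798, 0.557 and 1.41 FPKM in water. The highest library of Il1b was 4.26 times the lowest within PS-MP and 3.71 times within water, and its log2 fold change of 0.24 had a 95% interval of -0.61 to 1.10, which reaches past a 2-fold difference upward. Without PS-MP replicate 3 the log2 fold change of Il1b was 0.59 (adjusted p = 0.537 by limma), and without PS-MP replicate 2 it was -0.05. The interleukin-1 receptor Il1r1, from the pathway genes described later, had 23.6 ± 2.94 FPKM in PS-MP and 14.3 ± 4.80 FPKM in water (SD, n = 3 each). It did not pass (adjusted p = 0.237 by limma), and its water libraries were uneven, at 9.003, 18.3 and 15.7 FPKM.

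Of the chemokines that could be tested, Cxcl1 and Cxcl13, neither passed. Cxcl1, the mouse neutrophil chemokine with kB matches in its start region, had 0.897, 1.27 and 1.79 FPKM in PS-MP against 0.983, 0.661 and 0.771 FPKM in water. PS-MP replicate 1 fell within the water range, and the log2 fold change was 0.46 with a standard error of 0.19 (adjusted p = 0.362 by limma). Without PS-MP replicate 3, which was highest, it was 0.28. Cxcl13, the B cell chemokine, had 8.57, 6.82 and 2.33 FPKM in PS-MP against 3.95, 5.49 and 3.59 FPKM in water. PS-MP replicates 1 and 2 lay above every water library and PS-MP replicate 3 below every one. The log2 fold change of Cxcl13 was 0.26 (95% interval -0.65 to 1.17) with all libraries and 0.77 without PS-MP replicate 3, with adjusted p of 0.82 and 0.183 by limma; without PS-MP replicate 1 it was -0.07.

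Of the 7 tested members that are NF-kB subunits, inhibitors and feedback targets, none passed (0 with limma-voom; 3 had an unadjusted p under 0.05, all lower). Their fold changes were negative for 6 of 7, against 46.3% of all genes tested, while in a wider list of the NF-kB core, described later, 11 of 18 were positive. Nfkbia (chromosome 12, 55489410 to 55492647, minus strand), a target whose product restrains NF-kB, had 19.5, 19.3 and 16.2 FPKM in PS-MP against 27.4, 24.5 and 23.1 FPKM in water. The groups did not overlap, and each value rested on 389 to 671 reads. The log2 fold change was -0.44 with a standard error of 0.10 (95% interval -0.67 to -0.21; adjusted p = 0.121 by limma), and it ran from -0.50 to -0.36 over the 15 alternatives, none of which brought it past the threshold (adjusted p from 0.0781 to 0.378). Nfkb1, the gene of the p50 subunit and itself a target, had 1.996, 2.102 and 2.07 FPKM in PS-MP against 2.38, 2.46 and 2.52 FPKM in water. The spread within each group was small and the groups did not overlap, with a log2 fold change of -0.21 (standard error 0.09, adjusted p = 0.368 by limma).

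Tnfaip2, a TNF-inducible gene, had 2.70, 2.33 and 1.86 FPKM in PS-MP against 3.26, 2.69 and 2.96 FPKM in water, so the highest PS-MP library just reached the lowest water library. Its log2 fold change was -0.32 (standard error 0.13, adjusted p = 0.367 by limma), and -0.20 without PS-MP replicate 3. Tnfaip3, the gene of the ubiquitin-editing brake A20, had 0.772, 0.512 and 0.677 FPKM in PS-MP against 0.501, 1.02 and 0.763 FPKM in water, with the groups fully overlapping. Nfkb2 and Relb, the subunits of the alternative pathway, had log2 fold changes of -0.11 and -0.16, and their groups overlapped. Without PS-MP replicate 3 these were -0.02 and -0.08. Nfkb2 shares exon sequence with Psd and AC114539.1. Birc3, an inhibitor of cell death that NF-kB induces, was the exception in sign. It had 3.33, 2.98 and 3.23 FPKM in PS-MP against 2.66, 2.93 and 2.78 FPKM in water, without overlap, and a log2 fold change of 0.16 (standard error 0.09, adjusted p = 0.49 by limma).

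Counted over the 28 tested members, the PS-MP and water values did not overlap for 5 genes, lower in PS-MP for Ackr2, Il1rn, Nfkb1 and Nfkbia and higher for Birc3. That is 17.9% of the members, against 19.2% of all genes tested; in the lower direction it is 14.3% against 8.12%, and in the higher direction 3.57% against 11.1%. An unadjusted p under 0.05 by limma was found for 6 members (21.4%, against 13.1% of all genes tested). Of these, 5 were lower in PS-MP (17.9%, against 5.57%) and 1, Cxcl1, was higher (3.57%, against 7.49%). Ackr2, whose call was known when the members were chosen, is counted among the lower genes in these shares. The median log2 fold change of the members was 0.00, with 14 positive and 14 negative (50%, against 46.3% negative over all genes tested), beside a median of 0.01 for all genes tested.

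**Figure D3:**
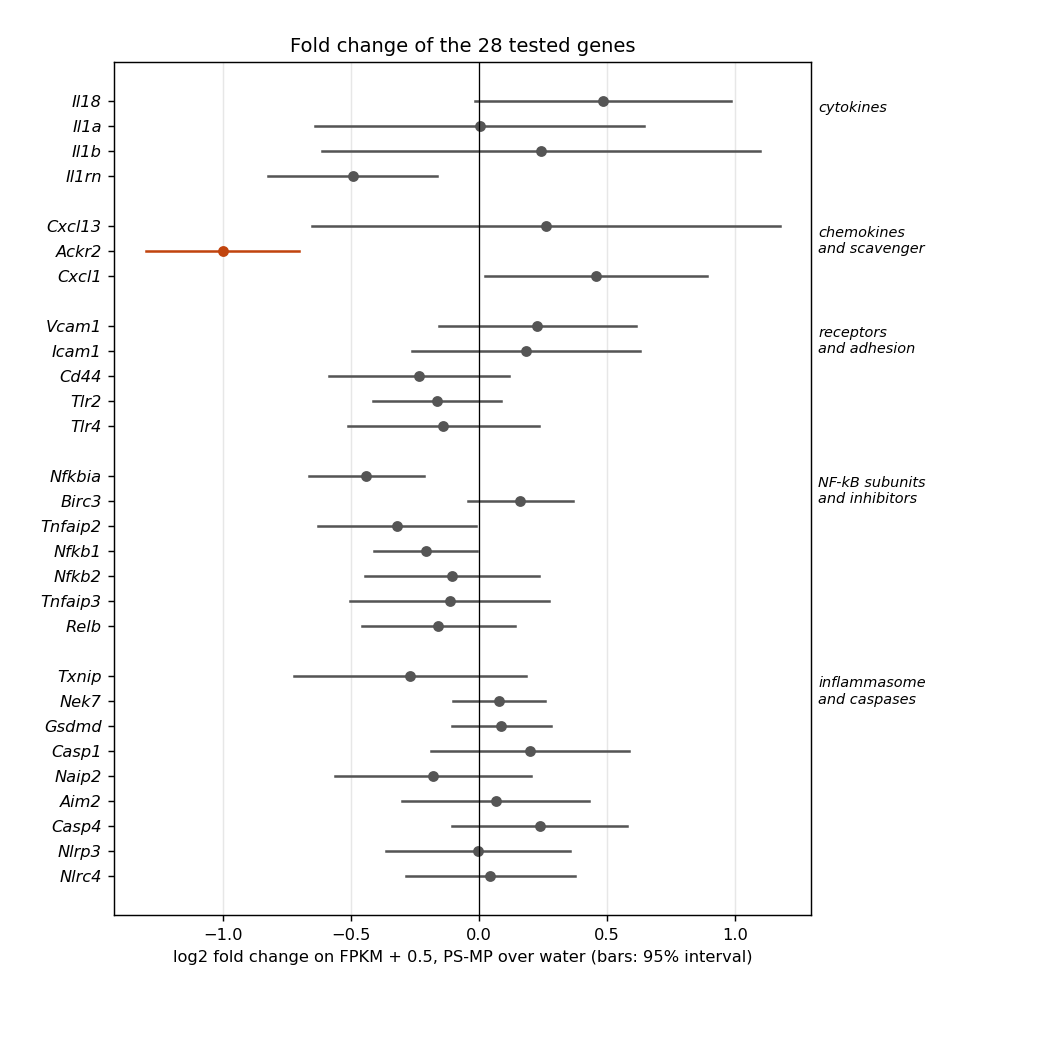
Log2 fold change on FPKM + 0.5, PS-MP over water, of the 28 tested genes, grouped by role; points are estimates and bars 95% intervals from limma. Ackr2 (-1.001, coloured) is the only gene past the adjusted threshold; the widest intervals belong to Cxcl13 and Il1b.

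The receptors and adhesion molecules gave no call among 5 genes (0 with limma-voom, and 0 at an unadjusted p under 0.05). Tlr4, the receptor for bacterial lipopolysaccharide, had 0.578, 0.361 and 0.241 FPKM in PS-MP against 0.462, 0.361 and 0.607 FPKM in water. Tlr2, which senses bacterial lipoproteins, had 0.736, 0.916 and 0.734 FPKM in PS-MP against 0.918, 0.881 and 1.05 FPKM in water. The groups overlapped for both, with log2 fold changes of -0.14 and -0.16. Without PS-MP replicate 3 that of Tlr4 was -0.01.

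The adhesion molecules Icam1 and Vcam1, by which endothelium holds leukocytes, had log2 fold changes of 0.18 and 0.23. Icam1 was at 2.72, 2.58 and 1.48 FPKM in PS-MP against 1.81, 1.66 and 2.16 FPKM in water. As for Cxcl13, PS-MP replicates 1 and 2 exceeded all water libraries and PS-MP replicate 3 was under them. Without that library the log2 fold change of Icam1 was 0.41 (adjusted p = 0.282 by limma), whereas without PS-MP replicate 1 it was 0.06 and without PS-MP replicate 2 it was 0.09. Vcam1 was at 3.15, 2.28 and 2.003 FPKM in PS-MP against 1.65, 2.09 and 2.34 FPKM in water, and its log2 fold change was 0.07 without PS-MP replicate 1 and 0.34 without PS-MP replicate 3. Cd44, a hyaluronan receptor of leukocytes, had 2.13, 1.72 and 1.39 FPKM in PS-MP against 1.96, 1.91 and 2.54 FPKM in water, with a log2 fold change of -0.23, or -0.12 without PS-MP replicate 3.

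Among 9 tested inflammasome genes none passed (0 with limma-voom, and 0 at an unadjusted p under 0.05). Txnip, a thioredoxin-binding protein described as an activator of NLRP3 and also a glucose-responsive gene, was the most abundant member, at 56.7, 70.5 and 40.9 FPKM in PS-MP against 66.8, 55.9 and 77.1 FPKM in water. The groups overlapped and the log2 fold change was -0.27 (standard error 0.20), or -0.06 without PS-MP replicate 3, its lowest library. Txnip shares exon sequence with Gm15441, whose reads cannot be told from its own. Nek7, a kinase that NLRP3 needs for assembly, had 15.4, 14.8 and 14.02 FPKM in PS-MP against 13.9, 12.97 and 15.03 FPKM in water. Gsdmd, the pore-forming executor of pyroptosis, had 8.36, 8.84 and 7.92 FPKM in PS-MP against 8.45, 7.84 and 7.27 FPKM in water. These were the best measured genes of the complex, with log2 fold changes of 0.08 (95% interval -0.10 to 0.26) for Nek7 and 0.09 (95% interval -0.10 to 0.28) for Gsdmd.

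The sensors themselves were low. Nlrp3 had 0.377, 0.572 and 0.231 FPKM in PS-MP against 0.308, 0.480 and 0.374 FPKM in water, and its log2 fold change was 0.00 (95% interval -0.36 to 0.36). Adding 0.5 narrows this interval at such low levels. The standard error was 0.155 on FPKM + 0.5 and 0.369 with limma-voom on the reads, which gave -0.04. Aim2, a sensor of cytosolic DNA, had 0.655, 0.323 and 0.670 FPKM in PS-MP against 0.414, 0.472 and 0.590 FPKM in water. Nlrc4, which assembles when NAIP proteins bind bacterial flagellin or secretion system parts, had 0.382, 0.287 and 0.195 FPKM in PS-MP against 0.397, 0.172 and 0.229 FPKM in water. For all 3 sensors the groups overlapped. Without PS-MP replicate 3 the log2 fold changes were 0.13 for Nlrp3, -0.02 for Aim2 (0.07 with all libraries) and 0.13 for Nlrc4 (0.04 with all libraries). Naip2, a NAIP of that pathway, had 1.29, 0.803 and 1.217 FPKM in PS-MP against 1.52, 1.011 and 1.41 FPKM in water. Its near-identical neighbours Naip1, Naip5 and Naip6 may share reads with it, which makes these values uncertain.

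Casp1, the protease of the canonical inflammasome, had 1.84, 1.09 and 1.39 FPKM in PS-MP against 0.968, 1.14 and 1.43 FPKM in water. Casp4, the gene of mouse caspase-11, which binds lipopolysaccharide inside cells, had 0.762, 0.558 and 0.379 FPKM in PS-MP against 0.408, 0.318 and 0.464 FPKM in water. PS-MP replicates 1 and 2 were above the water range for Casp4 and PS-MP replicate 3 within it. The log2 fold changes were 0.20 for Casp1 and 0.24 for Casp4, each with a 95% interval that includes 0, and 0.37 for Casp4 without PS-MP replicate 3 (adjusted p = 0.35 by limma). Without PS-MP replicate 1 they were 0.05 for Casp1 and 0.11 for Casp4.

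**Figure D4:**
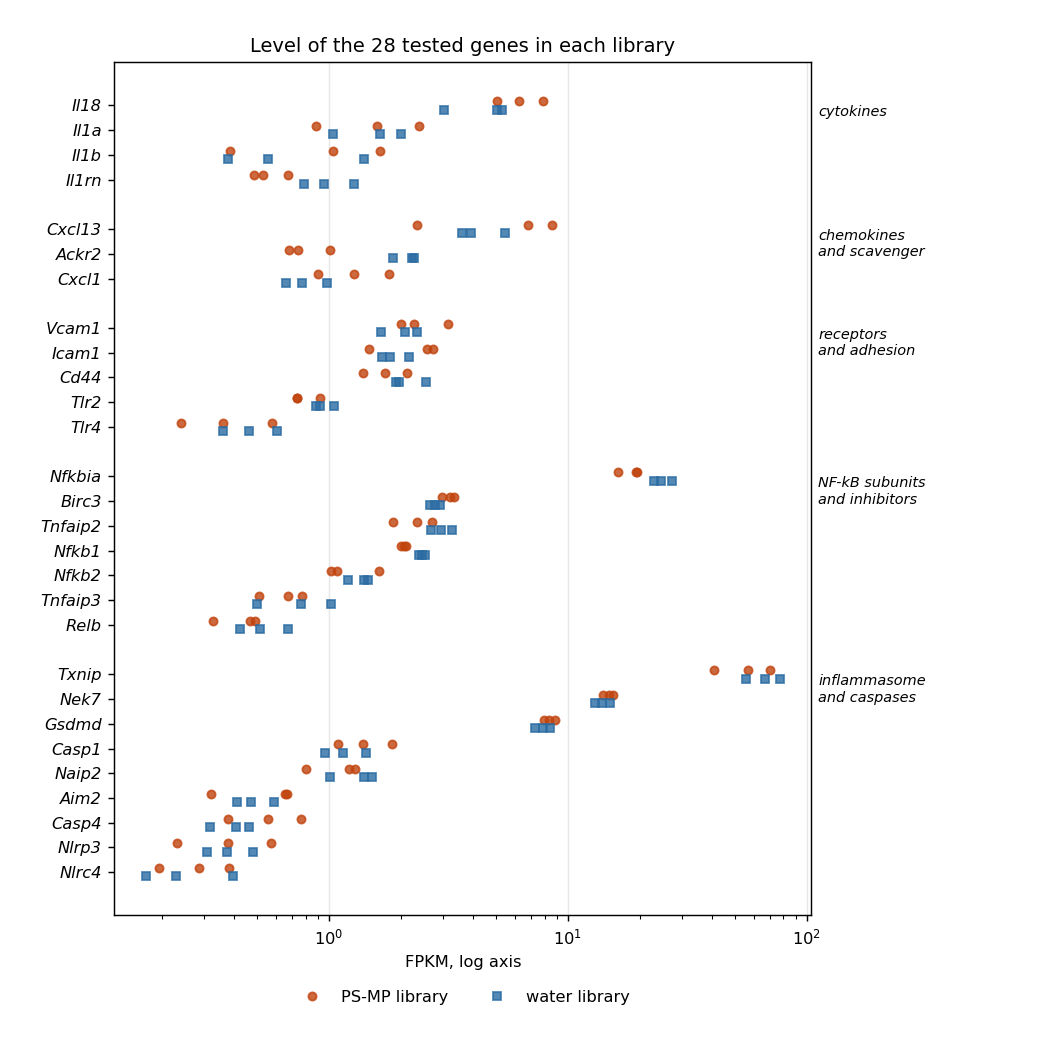
FPKM on a log axis of the 28 tested genes, grouped by role and sorted by mean within a role; circles are PS-MP libraries and squares water libraries. Levels span from Nlrc4 at 0.172 FPKM in a water library to Txnip at 77.1 FPKM in another, and the groups overlap for all genes but Ackr2, Il1rn, Nfkbia, Nfkb1 and Birc3.

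Within the PS-MP group, the members did not vary library by library like the table as a whole. PS-MP replicate 3 was the lowest of the 6 libraries for 13 of the 28 tested members (46.4%), against 18.3% of all genes tested, and PS-MP replicate 1 was the highest for 9 (32.1%, against 14.1%). With median-of-ratios scaling, tried after the data had been seen, PS-MP replicate 3 was lowest for 14 members (50%, against 23.7% of all genes). The 13 were Il1a, Il1rn, Cxcl13, Icam1, Cd44, Tlr2, Tlr4, Nfkbia, Nfkb2, Relb, Tnfaip2, Nlrp3 and Txnip, which include macrophage receptors, cytokines and NF-kB targets. This pattern was noticed in these data and has no test.

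Markers of other cell types were set beside it. The 11 Kupffer cell and macrophage markers summed to 172, 164 and 135 FPKM in PS-MP replicates 1, 2 and 3, against 139, 146 and 149 FPKM in water replicates 1, 2 and 3, and none of the 11 changed with limma-trend or limma-voom (1, Cd5l, had an unadjusted p under 0.05). Marco, a scavenger receptor of macrophages, had 13.0, 12.2 and 2.16 FPKM in PS-MP against 6.397, 6.19 and 4.65 FPKM in water, the same order of libraries as Cxcl13 within PS-MP. Marco was the extreme of its list: its highest PS-MP library was 6.03 times its lowest, and the next marker, C1qa, reached 1.49 times. The 9 monocyte and neutrophil markers summed to 0.997 to 2.60 FPKM in PS-MP and 1.87 to 2.62 FPKM in water, and the neutrophil markers Ly6g and Mpo had no read in any library. Among them Ly6c2, a monocyte marker too low to be tested, had 1, 1 and 3 reads in PS-MP libraries against 8, 8 and 7 reads in water libraries, without overlap. No other marker of this list separated the groups, and 8.12% of all genes tested were lower without overlap. The 2 markers that could be tested went both ways. Csf3r had means of 0.783 FPKM in PS-MP and 0.635 FPKM in water, and Ccr2 had 0.119 and 0.190 FPKM. The untested ones with reads, Ly6c2, S100a8, S100a9, Elane and Cxcr2, all had lower means in PS-MP, on few reads. The 8 lymphocyte markers summed to 0.822 to 1.74 FPKM in PS-MP and 1.41 to 2.15 FPKM in water, and sinusoidal endothelial markers to 42.1 to 51.3 FPKM in PS-MP and 40.4 to 51.6 FPKM in water. The part of these cells, or of the forebrain reads of the PS-MP libraries, in the members' values was not tested.

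**Figure D5:**
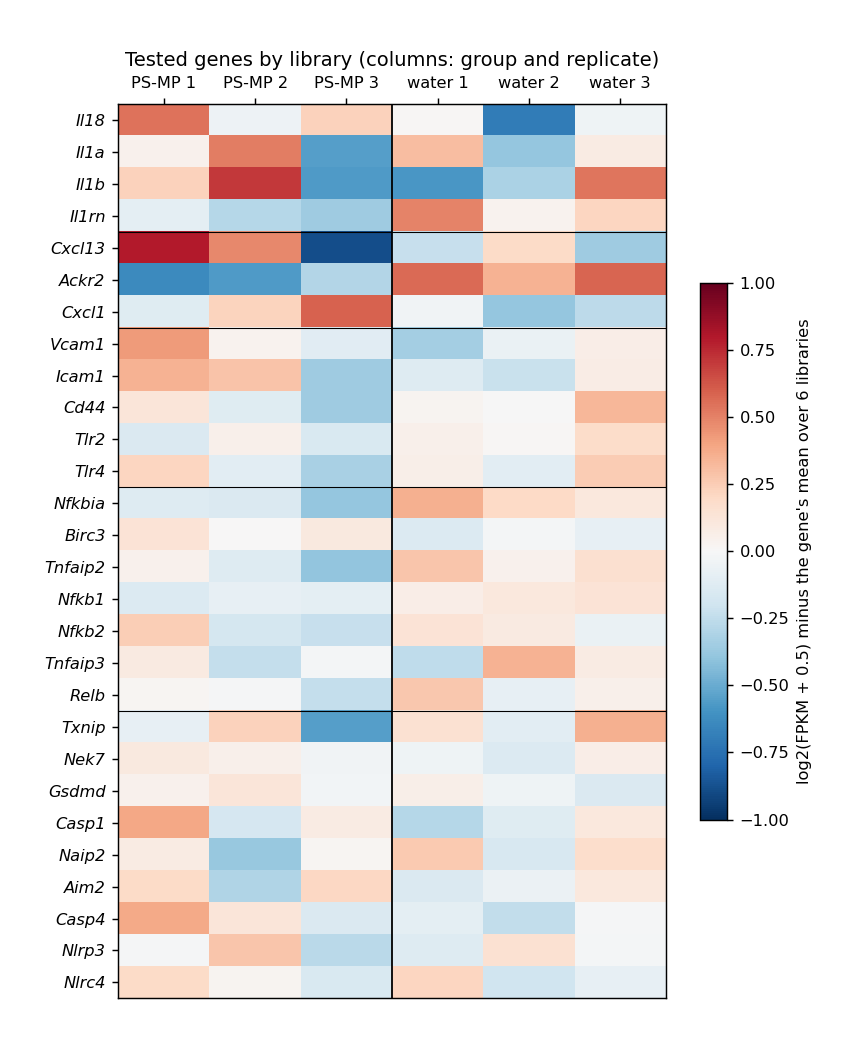
Log2(FPKM + 0.5) of each tested gene minus its mean over the 6 libraries, with PS-MP columns left of water columns; red is above and blue below the gene's mean. PS-MP replicate 3 is the lowest library for 13 of the 28 genes, most visibly Cxcl13, Il1a and Txnip, and Ackr2 and Nfkbia are below their mean in all 3 PS-MP columns.

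Beyond the members, 103 further genes of the same pathways were listed, of which 81 were tested. None changed (0 with limma-voom), 13 had an unadjusted p under 0.05 and a higher mean in PS-MP (16%, against 7.49% of all genes tested), 7 had one and a lower mean (8.64%, against 5.57%), and the median log2 fold change was 0.05. In the list of receptors and adaptors (25 tested, median 0.05) the smallest p belonged to Tnfrsf1a, the main TNF receptor (log2 fold change 0.24), Il1r1, the signalling interleukin-1 receptor (0.75), and Tnfrsf1b, the second TNF receptor (0.22), with adjusted p of 0.237 to 0.274 by limma. Among 18 genes of the NF-kB core and its brakes (median 0.07, with 4 higher and 0 lower at an unadjusted p under 0.05) they belonged to Chuk, the kinase IKK-alpha (0.27), and the nuclear IkB proteins Nfkbiz (0.42) and Bcl3 (0.38), with adjusted p of 0.184 to 0.231 by limma. These are positive, whereas Nfkbia, the cytoplasmic inhibitor, had -0.44; no test compared them.

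In the list of other NF-kB inducible genes (16 tested, median 0.06), Socs3, a brake on cytokine signalling through JAK and STAT, had a log2 fold change of 0.88, the acute phase gene Saa3 0.51 and the transcription factor Junb 0.32, with adjusted p of 0.168 to 0.273 by limma. Of the other inflammasome genes (17 tested, median 0.03), Nlrp12, described as a brake on NF-kB, had -0.48 (adjusted p = 0.165 by limma), at 11.9 ± 1.59 FPKM in PS-MP and 16.8 ± 2.16 FPKM in water (SD, n = 3 each). Mefv, the gene of pyrin, had 0.26 and Naip1 0.22. Of 5 tested chemokine receptors (median 0.05), Ccr2 had a log2 fold change of -0.16 and Cxcr4 of -0.23, each with an adjusted p of 0.589 by limma.

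The precision of these libraries bounds what could have been seen. For 25 of the 28 tested members (89.3%, against 96.5% of all genes tested) the 95% interval of the log2 fold change lay within a 2-fold difference either way; the exceptions were Ackr2, Il1b and Cxcl13. Intervals rest on 3 libraries per group and on the scale of FPKM + 0.5, which draws low genes such as Nlrc4, Nlrp3, Relb and Tlr4 towards 0 and narrows their intervals. With limma-voom on the reads the standard error of Tlr4 was 0.34, against 0.16 on FPKM + 0.5. The count of 25 therefore holds for the scale of FPKM + 0.5 only.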

How the data were processed

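Libraries were made from total liver RNA with standard Illumina methods, per the labels. The authors deposited a file of FPKM values, 1 per gene, for each library. The submitters' processing notes name CASAVA, FastQC, MultiQC, Trimmomatic 0.38, HISAT2 2.1.0, featureCounts 1.6.0 and DESeq2 1.22.1, and the human build GRCh38; all 55536 gene identifiers are those of mouse GENCODE M21 on GRCm38, which gave symbols and coordinates. Strandedness and the counting of reads or pairs are not given in the sources used here. FPKM times merged exon length gave whole reads, within 0.001, for 100.0% of genes above 0 in each library, and their sums equalled the implied totals. The total bounds precision; an upper limit from a count of 0 covers counting error alone.

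The main test was limma-trend (limma 3.58.1, R 4.3.3) on log2(FPKM + 0.5), group as the only term, all 6 libraries, Benjamini-Hochberg adjustment over 13299 genes, threshold 0.05; the low-count rule was 0.66 CPM in 3 libraries and 15 reads in all. The procedure was also run on simulated counts with the same fixed dispersion for every gene and no outlying library. These data differ there, and no result here rests on that run. Alternatives varied the pseudocount, low-count rule, scaling, model, replicate block and libraries. Members, lists and tests were chosen with earlier results of these data known, Ackr2's call among them. All 38 members are named; every pathway list names its 3 genes with the smallest p, of which 1 is not reported here. Other named genes, such as Marco, were chosen after their values were seen.

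Replicate numbers did not pair the groups: deviations of same-numbered libraries correlated at -0.04, 0.05 and -0.01.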

Additional observations from a re-analysis of the deposited data

How the results depend on the processing

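The number of genes changed, 65, was 57 to 72 when the pseudocount was 0.1 or 1, when 1 CPM in 3 libraries was required, or with either other scaling or robust empirical Bayes. It was 0 with no low-count rule (26854 genes tested, 2064 with an unadjusted p under 0.05 by limma-trend), 133 with limma-voom on recovered reads, 23 with the replicate block, and 0 to 36 with 1 library left out. Under the replicate block, whose numbers do not pair the libraries, 0 members changed (Ackr2: log2 fold change -1.001, adjusted p = 0.0688 by limma). With no low-count rule 0 members changed (limma-trend; 4 had an unadjusted p under 0.05; Ackr2 adjusted p = 0.129); with 1 library left out 0 to 1 did. In the other 7 alternatives 1 member changed, Ackr2. Its log2 fold change ran from -1.37 to -0.78, and its direction was fixed by groups that do not overlap wherever scaling was kept. The median of the members ran from -0.05 to 0.05. Of 28 members, 21 kept 1 direction in all 15 alternatives; Aim2, Cxcl13, Il1a, Il1b, Nlrc4, Nlrp3 and Tnfaip3 did not, and none of these passed. The depth limits the 10 untested members most.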
